A study of Homo sapiens with 10 samples.

Results

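The genes described here are the D-type cyclins CCND1, CCND2 and CCND3, their kinases CDK4 and CDK6, and the CDK inhibitors CDKN1A, CDKN1B, CDKN1C, CDKN2C and CDKN2D. They were chosen by symbol, but with earlier results of these data known. The inhibitor genes CDKN2A and CDKN2B, listed at 0 in all samples, are not among them. All 10 were found among the 23284 genes of the deposited table, and all 10 were among the 12788 genes that were tested. The cells were K562, an established human chronic myelogenous leukemia line, and every sample came from this single line without a genetic change. They were exposed for 48 h to the vehicle DMSO, to CBP30 at 2 or 5 µM, or to I-CBP112 at 2 or 5 µM, and each of these 5 conditions had 2 biological replicates, which makes 10 samples. CBP30 and I-CBP112 are small molecules that bind the bromodomains of the acetyltransferases CREBBP and EP300. Polyadenylated RNA was sequenced, and levels are in FPKM, fragment numbers scaled to the transcript length and to how many fragments were mapped, so that genes of different length can be set side by side. Differences are between means of log2(FPKM + 1), on which the fold change of a weakly expressed gene appears too small, and a gene was called when its Benjamini-Hochberg adjusted p from limma, over all tested genes, was under 0.05.

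D-type cyclins bind CDK4 or CDK6, and the resulting kinases phosphorylate the retinoblastoma protein RB1, which releases E2F transcription factors and lets a cell pass from G1 into S phase. The INK4 inhibitors, here p18 (CDKN2C) and p19 (CDKN2D), bind CDK4 and CDK6 alone and keep them from the cyclin, whereas the Cip/Kip inhibitors p21 (CDKN1A), p27 (CDKN1B) and p57 (CDKN1C) block the CDK2 complexes and also take part in the assembly of cyclin D with its kinase. In the erythroid lineage, to which K562 cells are related, G1 cyclins and inhibitors are known for their part in the step from division to terminal maturation. Inhibitor and cyclin proteins are also set by translation and degradation, which RNA levels do not show.

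Reads per library are not given in FPKM, so the depth is unknown and no counting error was derived, and the precision rests on 2 samples per condition. One library, replicate 1 of 2 µM CBP30, stood apart. In it the deviation of a gene from its mean over all 10 samples followed transcript length. Spearman's rho was −0.585 across the 12147 tested genes with a known length, which are not independent replicates. It was between −0.079 and 0.333 in the other libraries. In replicate 1 of 2 µM CBP30 the translation factor EEF1A1 is listed at 0, against 5338 to 6661 FPKM elsewhere. Both libraries of 5 µM CBP30 had a weaker trend in the opposite direction (rho = 0.333 and 0.332), which cannot be told apart from that treatment. Their median difference from DMSO was −0.118 and −0.113 in the shortest of 5 groups of length and 0.117 and 0.119 in the longest. Of the 10 genes, CDK6 has the longest transcript, 11663 nucleotides, and CDKN2C the shortest, 995 nucleotides. CDK6 was 0.66 lower in replicate 1 than in replicate 2 of 2 µM CBP30 on the log2 scale, and CDKN2C was 0.46 higher. Each count of called genes is therefore given with and without this library. Without it 2 µM CBP30 keeps 1 sample and adds nothing to the residual spread. The median residual SD over the tested genes was then 0.0587 in place of 0.0951, and more genes were called in most comparisons. Leaving out replicate 2 instead gave nearly the same numbers called for 5 µM CBP30 and for 5 µM I-CBP112 against DMSO. Calls given without replicate 1 thus come with this smaller pooled spread, and for 2 µM CBP30 they rest on 1 treated sample.

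**Figure D1:**
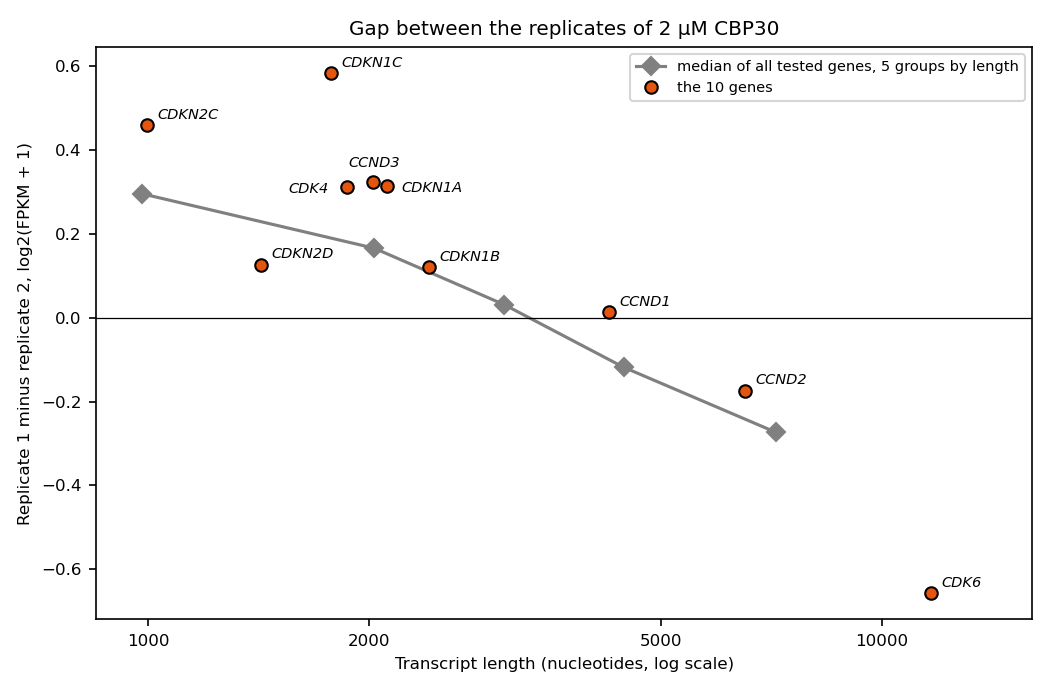
Difference between replicate 1 and replicate 2 of 2 µM CBP30 on the log2(FPKM + 1) scale (vertical axis) against transcript length in nucleotides (horizontal axis, log scale), for the 10 genes (circles) and as the median of all tested genes in 5 groups of length (diamonds). The medians run from 0.296 in the shortest to −0.273 in the longest group, and CDK6, at −0.657, lies furthest below 0.

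With 5 µM CBP30, CCND1, CCND2, CDK4 and CDKN1C fell and CCND3, CDKN1A, CDKN1B, CDKN2C and CDKN2D rose. This made 9 of the 10 genes called, against 46.6% of all tested genes, so that a call by itself was common in this comparison. The 10 genes had a median size of difference of 0.52 on the log2 scale, against 0.27 over all tested genes. With 2 µM CBP30 8 genes were called against a background of 32.1%, with 5 µM I-CBP112 3 genes against 7.12%, and with 2 µM I-CBP112 1 gene against 1.6%. CDKN2D was the gene called with both compounds at both concentrations. Without replicate 1 of 2 µM CBP30, 10 genes were called with 5 µM CBP30 (62.9% of all tested genes), 9 with 2 µM CBP30 (37.1%), 8 with 5 µM I-CBP112 (23%) and 2 with 2 µM I-CBP112 (9.07%). All samples of a treatment lay on one side of both DMSO samples for all 10 genes with 5 µM CBP30 (82.1% of all tested genes), 8 with 2 µM CBP30 (61.9%), 9 with 5 µM I-CBP112 (64.2%) and 8 with 2 µM I-CBP112 (53.3%), and such a separation was common over all genes. The 4 comparisons share the same 2 DMSO samples and are not independent of each other.

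**Figure D2:**
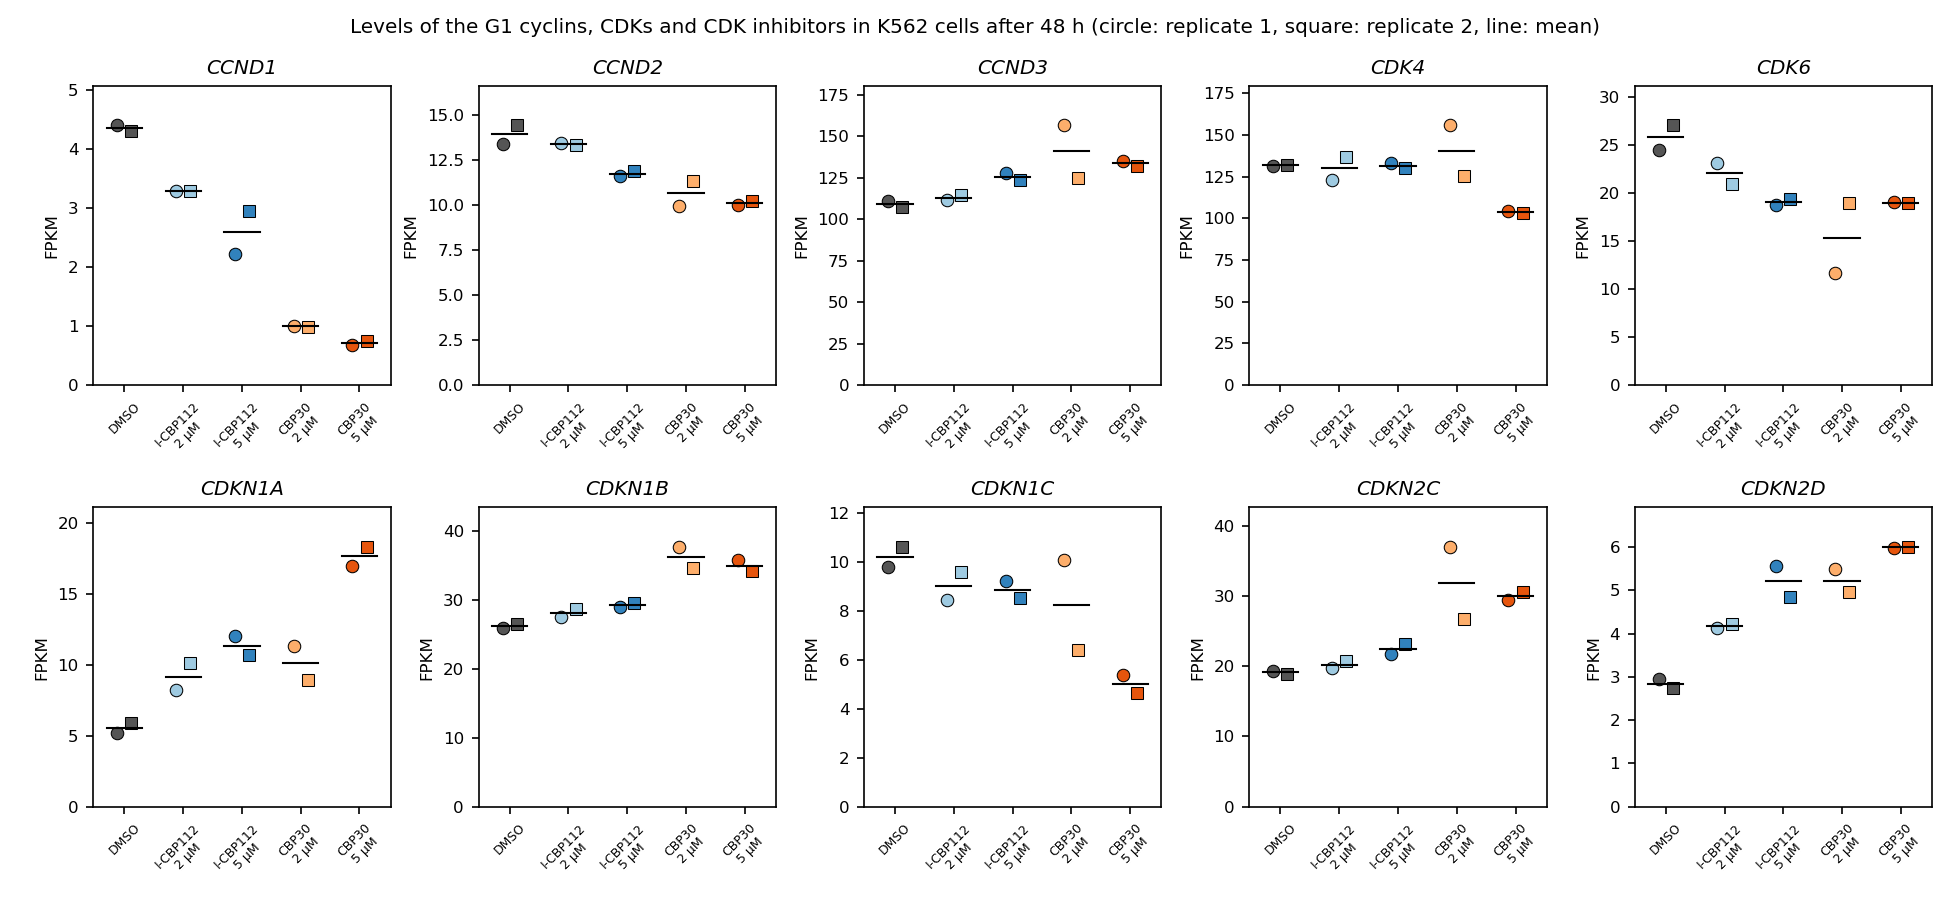
FPKM of each of the 10 genes (vertical axes, from 0) in the 10 samples, by condition (horizontal axes), with replicate 1 as a circle, replicate 2 as a square and the mean of both as a line. The mean of CCND1 goes from 4.36 FPKM (DMSO) to 0.712 (5 µM CBP30), that of CDKN1A from 5.55 to 17.6, and the replicates of 2 µM CBP30 lie far apart for CDK6, CDKN1C and CDKN2C.

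**Figure D3:**
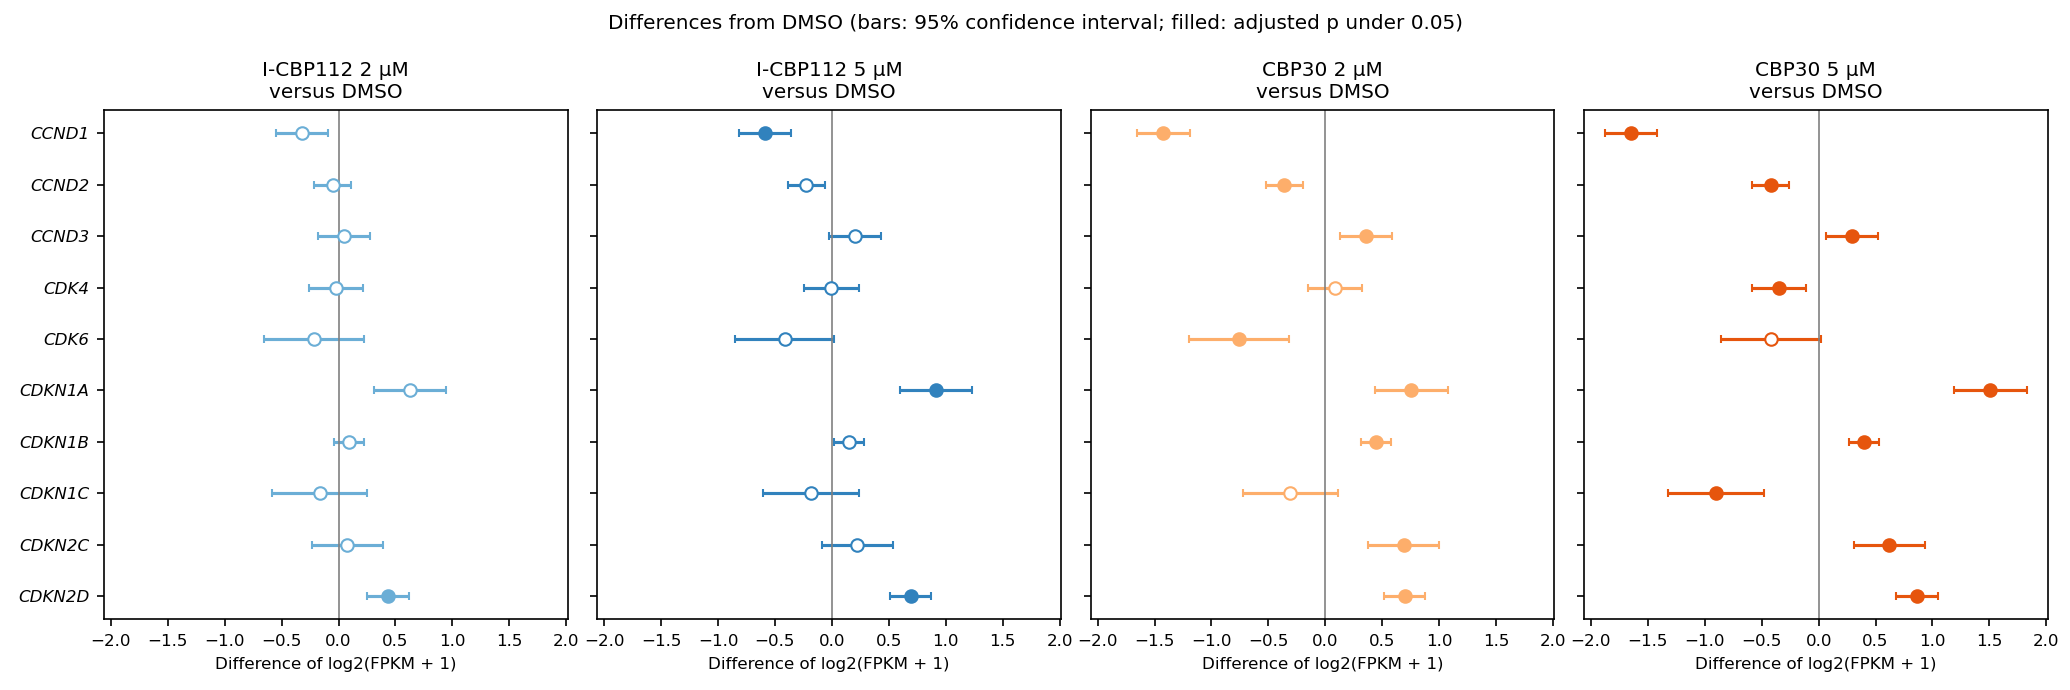
Difference from DMSO on the log2(FPKM + 1) scale (horizontal axes) for each gene (vertical axis) and treatment, with 95% confidence intervals from limma over 10 samples, filled where the adjusted p was under 0.05. From left to right 1, 3, 8 and 9 of the 10 genes are filled, with CCND1 furthest to the left and CDKN1A furthest to the right at 5 µM CBP30.

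Among the D-type cyclins, CCND1 and CCND2 fell with CBP30 while CCND3 rose. CCND1 (chromosome 11, 69455924 to 69469242, plus strand, hg19), a cyclin induced by growth factors in many cell types, was the lowest of the 3 and had the largest fall of the 10 genes. Its level was 4.41 and 4.31 FPKM with DMSO, 3.30 and 3.28 with 2 µM I-CBP112, 2.23 and 2.95 with 5 µM I-CBP112, 1.01 and 0.991 with 2 µM CBP30 and 0.673 and 0.750 with 5 µM CBP30. The 5 conditions stood in this order without overlap. The step from 2 to 5 µM CBP30 was not called with the pseudocount of 1 (−0.22, adjusted p = 0.104 from limma) and was called with a pseudocount of 0.1 (−0.44, adjusted p = 0.0415). The step from 2 to 5 µM I-CBP112 (−0.27, adjusted p = 0.755 from limma) was not called, and neither was the step from DMSO to 2 µM I-CBP112 (−0.32, adjusted p = 0.199). The mean with 5 µM CBP30 was 16.3% of that with DMSO and the mean with 5 µM I-CBP112 was 59.4% (log2 differences −1.65 and −0.59, SE 0.0977, adjusted p = 3.02e-05 and 0.0162). The call with 5 µM I-CBP112 was lost when either DMSO sample or replicate 1 of the treated samples was left out (adjusted p between 0.0619 and 0.109) and in a fit of only the 2 groups (0.0591). ORAOV1, on the opposite strand, shares 497 exon bases with CCND1 and was between 5.56 and 7.18 FPKM in all samples, and whether the reads were counted by strand is not given in the sources used here.

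CCND2 (chromosome 12, 4378937 to 4414519, plus strand), the D cyclin most tied to hematopoietic and germ cells, changed less. It was at 13.4 and 14.5 FPKM with DMSO, 13.5 and 13.4 with 2 µM I-CBP112, 11.6 and 11.9 with 5 µM I-CBP112, 9.96 and 11.4 with 2 µM CBP30 and 10.0 and 10.3 with 5 µM CBP30. All 4 CBP30 samples were below both DMSO samples, and the concentrations of CBP30 overlapped. It fell by 0.42 on the log2 scale at 5 µM CBP30 (SE 0.0691, adjusted p = 0.00235 from limma) and by 0.36 at 2 µM (adjusted p = 0.00883). The call at 2 µM was lost without replicate 2 of DMSO (adjusted p = 0.0652) and in a fit of only the 2 groups (0.154). With 5 µM I-CBP112 the difference of −0.23 was not called (adjusted p = 0.108) and was called without replicate 1 of 2 µM CBP30 (adjusted p = 0.0167).

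CCND3 (chromosome 6, 41902672 to 42018095, minus strand), the D cyclin of erythroid and lymphoid cells, made up most of the D cyclin RNA, between 85.1% and 93.5% of the summed FPKM in every sample. Its level was 111 and 107 FPKM with DMSO, 112 and 114 with 2 µM I-CBP112, 128 and 124 with 5 µM I-CBP112, 157 and 125 with 2 µM CBP30 and 135 and 132 with 5 µM CBP30. The treated samples were all above both DMSO samples, by little with 2 µM I-CBP112. CCND3 rose 1.22-fold with 5 µM CBP30 (0.29, SE 0.0972, adjusted p = 0.0445 from limma) and 1.29-fold with 2 µM (0.36, adjusted p = 0.0302). Both calls lay close to the threshold: that with 5 µM was lost without the filter on low values (adjusted p = 0.0616) or after median centring (0.0714), and leaving out 1 sample ended either call in many cases. Without replicate 1 of 2 µM CBP30 the rise was 0.29 with 5 µM, as before, and 0.19 with 2 µM, from 1 treated sample.

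Of the kinases, CDK4 (chromosome 12, 58141510 to 58149796, minus strand) was among the highest of the 10 genes and fell with 5 µM CBP30. It was at 131 and 132 FPKM with DMSO, 123 and 137 with 2 µM I-CBP112, 133 and 130.0 with 5 µM I-CBP112, 156 and 125 with 2 µM CBP30 and 104 and 103 with 5 µM CBP30. The samples of 5 µM CBP30 were the lowest of all 10, and the other conditions overlapped with DMSO. The fall was to 78.5% of the DMSO mean (−0.35, SE 0.101, adjusted p = 0.0274 from limma), and it was lost when any of the 4 samples compared was left out (adjusted p between 0.0996 and 0.113). The difference with 5 µM I-CBP112 was 0.00 on the log2 scale, with a 95% confidence interval from −0.24 to 0.23. Exons of CDK4 share 1369 bases with those of TSPAN31 on the opposite strand, and TSPAN31 was higher with 5 µM CBP30, at 24.3 FPKM in both samples against 16.6 and 19.01 with DMSO (0.43, adjusted p = 0.00264 from limma). The part of reads shared by both genes was not tested.

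CDK6 (chromosome 7, 92234235 to 92465887, minus strand), a kinase prominent in blood cell progenitors, was at 24.5 and 27.0 FPKM with DMSO, 23.1 and 20.9 with 2 µM I-CBP112, 18.7 and 19.4 with 5 µM I-CBP112, 11.6 and 18.9 with 2 µM CBP30 and 19.02 and 18.9 with 5 µM CBP30. The treated samples were all below both DMSO samples. It was called with 2 µM CBP30 alone (−0.75, SE 0.186, adjusted p = 0.0217 from limma), the condition that holds the library with the strongest length trend. This call was lost without replicate 1 or 2 of DMSO and in a fit of only the 2 groups (adjusted p = 0.179). Without that library the difference with 2 µM CBP30 was −0.43, from 1 treated sample. Those with 5 µM CBP30 and 5 µM I-CBP112 were both −0.42 and were not called with all libraries (adjusted p = 0.103 and 0.251). With the length trend removed from all libraries they were −0.55 and −0.38 and were called (adjusted p = 0.00155 and 0.0304 from limma). The ratio of CDK4 to CDK6 FPKM was between 4.88 and 7.10 in 9 samples and 13.4 in replicate 1 of 2 µM CBP30.

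Of the Cip/Kip inhibitors, p21 and p27 rose with CBP30 and p57 fell at 5 µM. CDKN1A (chromosome 6, 36644237 to 36655114, plus strand), an inhibitor known for its part in stress-induced growth arrest, had the largest rise of the 10 genes. Its level was 5.20 and 5.91 FPKM with DMSO, 8.19 and 10.1 with 2 µM I-CBP112, 12.02 and 10.7 with 5 µM I-CBP112, 11.3 and 8.91 with 2 µM CBP30 and 17.0 and 18.3 with 5 µM CBP30. All treated samples were above both DMSO samples, the samples of 5 µM CBP30 were above all others, and the 3 other treatments lay close together, with 2 µM CBP30 overlapping both concentrations of I-CBP112. The mean rose 3.18-fold with 5 µM CBP30 (1.51, SE 0.135, adjusted p = 0.000162 from limma), 1.82-fold with 2 µM CBP30 (0.76, adjusted p = 0.00658) and 2.04-fold with 5 µM I-CBP112 (0.91, adjusted p = 0.0108). The 1.65-fold higher level with 2 µM I-CBP112 was not called (0.63, adjusted p = 0.0845), and was called without replicate 1 of 2 µM CBP30 (adjusted p = 0.0269). The call with 5 µM I-CBP112 was lost when any of the 4 samples compared was left out (adjusted p between 0.0563 and 0.0934), and the call with 2 µM CBP30 was lost without replicate 1 of DMSO (adjusted p = 0.0511) and in a fit of only the 2 groups (0.0974).

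CDKN1B (chromosome 12, 12838432 to 12875303, plus strand), which holds back CDK2 in resting cells, was the highest of the 5 inhibitors with DMSO. It was at 25.9 and 26.5 FPKM with DMSO, 27.5 and 28.6 with 2 µM I-CBP112, 29.0 and 29.5 with 5 µM I-CBP112, 37.7 and 34.6 with 2 µM CBP30 and 35.8 and 34.1 with 5 µM CBP30. The CBP30 samples stood above all others, with no order between the concentrations. CDKN1B rose 1.33-fold with 5 µM CBP30 (0.40, SE 0.0560, adjusted p = 0.00114 from limma) and 1.38-fold with 2 µM (0.45, adjusted p = 0.00164), and the latter call was lost in a fit of only the 2 groups (0.0837). With 5 µM I-CBP112 the difference of 0.15 was called without replicate 1 of 2 µM CBP30 (adjusted p = 0.0312) and not with all libraries (adjusted p = 0.167).

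CDKN1C (chromosome 11, 2904443 to 2907005, minus strand), an imprinted gene and the third of the family, moved against the other inhibitors. Its level was 9.81 and 10.6 FPKM with DMSO, 8.45 and 9.58 with 2 µM I-CBP112, 9.24 and 8.51 with 5 µM I-CBP112, 10.1 and 6.41 with 2 µM CBP30 and 5.39 and 4.63 with 5 µM CBP30. The samples of 5 µM CBP30 were the lowest, and the replicates of 2 µM CBP30 reached from the range of DMSO to most of the way down to them. It fell to 49.0% of DMSO with 5 µM CBP30 (−0.90, SE 0.178, adjusted p = 0.00530 from limma). With 2 µM CBP30 the difference was −0.31 (adjusted p = 0.222 from limma) with all libraries. Without replicate 1 it was −0.60, from 1 treated sample. The ratio of CDKN1C to CDKN1A FPKM was 1.89 and 1.80 with DMSO and 0.318 and 0.253 with 5 µM CBP30.

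The INK4 inhibitors rose with CBP30. CDKN2C (chromosome 1, 51426417 to 51440306, plus strand) was at 19.3 and 18.9 FPKM with DMSO, 19.7 and 20.7 with 2 µM I-CBP112, 21.8 and 23.2 with 5 µM I-CBP112, 37.01 and 26.6 with 2 µM CBP30 and 29.3 and 30.5 with 5 µM CBP30. The CBP30 samples were all above the I-CBP112 samples, which were above DMSO. It rose 1.57-fold with 5 µM CBP30 (0.62, SE 0.132, adjusted p = 0.00735 from limma) and 1.67-fold with 2 µM (0.69, adjusted p = 0.00863). The call with 2 µM was lost without replicate 2 of DMSO (adjusted p = 0.0552) and in a fit of only the 2 groups (0.133). Without replicate 1 of 2 µM CBP30 the rise with 2 µM was 0.46, from 1 treated sample. The 0.22 with 5 µM I-CBP112 was not called with all libraries (adjusted p = 0.382 from limma).

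CDKN2D (chromosome 19, 10677136 to 10679735, minus strand) was the lowest of the inhibitors with DMSO and the gene with the steadiest rise. It was at 2.94 and 2.74 FPKM with DMSO, 4.14 and 4.23 with 2 µM I-CBP112, 5.57 and 4.85 with 5 µM I-CBP112, 5.50 and 4.95 with 2 µM CBP30 and 5.97 and 6.01 with 5 µM CBP30. All treated samples were above both DMSO samples, and 5 µM I-CBP112 and 2 µM CBP30 overlapped. It rose 2.11-fold with 5 µM CBP30 (0.86, SE 0.0773, adjusted p = 0.000162 from limma), 1.84-fold with 2 µM CBP30 (0.70, adjusted p = 0.00101), 1.83-fold with 5 µM I-CBP112 (0.69, adjusted p = 0.00394) and 1.47-fold with 2 µM I-CBP112 (0.43, adjusted p = 0.0483). The call with 2 µM CBP30 was lost in a fit of only the 2 groups (adjusted p = 0.0659). The call with 2 µM I-CBP112 was at the threshold and was lost without the filter on low values (adjusted p = 0.0829), after median centring (0.0659) or quantile normalization (0.107), in a fit of only the 2 groups (0.0900) and when most single samples were left out, whereas it was 0.0185 without replicate 1 of 2 µM CBP30. The other INK4 genes, CDKN2A and CDKN2B, which encode p16, ARF and p15 and lie together on the short arm of chromosome 9, are listed at 0 in all 10 samples. K562 cells are known to lack this locus.

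The start regions of CDK4, CDKN1A and CDKN2D are shown. CDK4 is the kinase called lower with 5 µM CBP30 in the main fit, and the other 2 are the inhibitors called higher with both compounds. CDK6 was also lower with 5 µM CBP30 (−0.42) and was not called in that fit. RefSeq promoters, as 250 bases before the annotated start on GRCh38.p14 (a different build from the hg19 positions above), were matched for 7 of the 10 genes. Capitals mark the hexamers searched on both strands that were found in these windows, the E-box CACGTG and the GC box GGGCGG, each also as its reverse complement, with overlapping GC boxes counted separately. AGATAA, a motif of GATA factors, and TATAAA, the TATA box, were searched as well.
CDK4, chr12:57752311-57752560, minus strand: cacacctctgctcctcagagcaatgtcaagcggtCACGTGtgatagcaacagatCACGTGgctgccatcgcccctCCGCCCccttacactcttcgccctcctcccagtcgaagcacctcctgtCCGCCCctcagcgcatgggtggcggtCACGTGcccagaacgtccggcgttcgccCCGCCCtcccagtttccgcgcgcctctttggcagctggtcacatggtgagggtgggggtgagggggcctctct
CDKN1A, chr6:36678464-36678713, plus strand: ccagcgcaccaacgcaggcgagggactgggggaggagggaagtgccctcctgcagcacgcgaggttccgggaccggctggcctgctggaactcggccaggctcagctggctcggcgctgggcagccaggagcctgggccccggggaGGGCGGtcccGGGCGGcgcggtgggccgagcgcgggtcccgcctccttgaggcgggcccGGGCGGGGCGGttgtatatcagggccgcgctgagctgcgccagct
CDKN2D, chr19:10568980-10569229, minus strand: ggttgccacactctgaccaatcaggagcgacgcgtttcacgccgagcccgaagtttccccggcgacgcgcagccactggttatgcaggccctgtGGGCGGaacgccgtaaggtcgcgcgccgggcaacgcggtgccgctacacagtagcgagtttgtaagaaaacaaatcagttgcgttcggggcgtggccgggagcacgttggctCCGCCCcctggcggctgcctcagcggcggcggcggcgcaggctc
The CDK4 window held 3 E-boxes and 3 GC boxes, the CDKN1A window 4 GC boxes and the CDKN2D window 2 GC boxes. Of 35116 RefSeq promoters 6.34% held at least 1 E-box, 42.6% at least 1 GC box, 9.17% AGATAA and 10.7% TATAAA, and none of these 3 windows held AGATAA or TATAAA. A match describes letters in this window only.

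Summed by role, the RNA of the inhibitors rose relative to that of the kinases. The 5 inhibitors together were at 0.405 and 0.407 times the summed FPKM of CDK4 and CDK6 with DMSO, 0.466 and 0.464 with 2 µM I-CBP112, 0.512 and 0.514 with 5 µM I-CBP112, 0.607 and 0.566 with 2 µM CBP30 and 0.759 and 0.768 with 5 µM CBP30. The conditions did not overlap in this ratio, which is a description without a test. CDKN1A made up 8.23% and 9.13% of the inhibitor FPKM with DMSO and 18.1% and 19.6% with 5 µM CBP30. CCND1 made up 3.42% of the D cyclin FPKM in both DMSO samples, 1.57% and 2.13% with 5 µM I-CBP112 and 0.462% and 0.523% with 5 µM CBP30. The sum of the D cyclins was 129 and 126 FPKM with DMSO and 146 and 143 with 5 µM CBP30, since CCND3 outweighs the others. In bulk RNA, fewer cells that express a gene and less RNA of it per cell cannot be told apart.

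**Figure D4:**
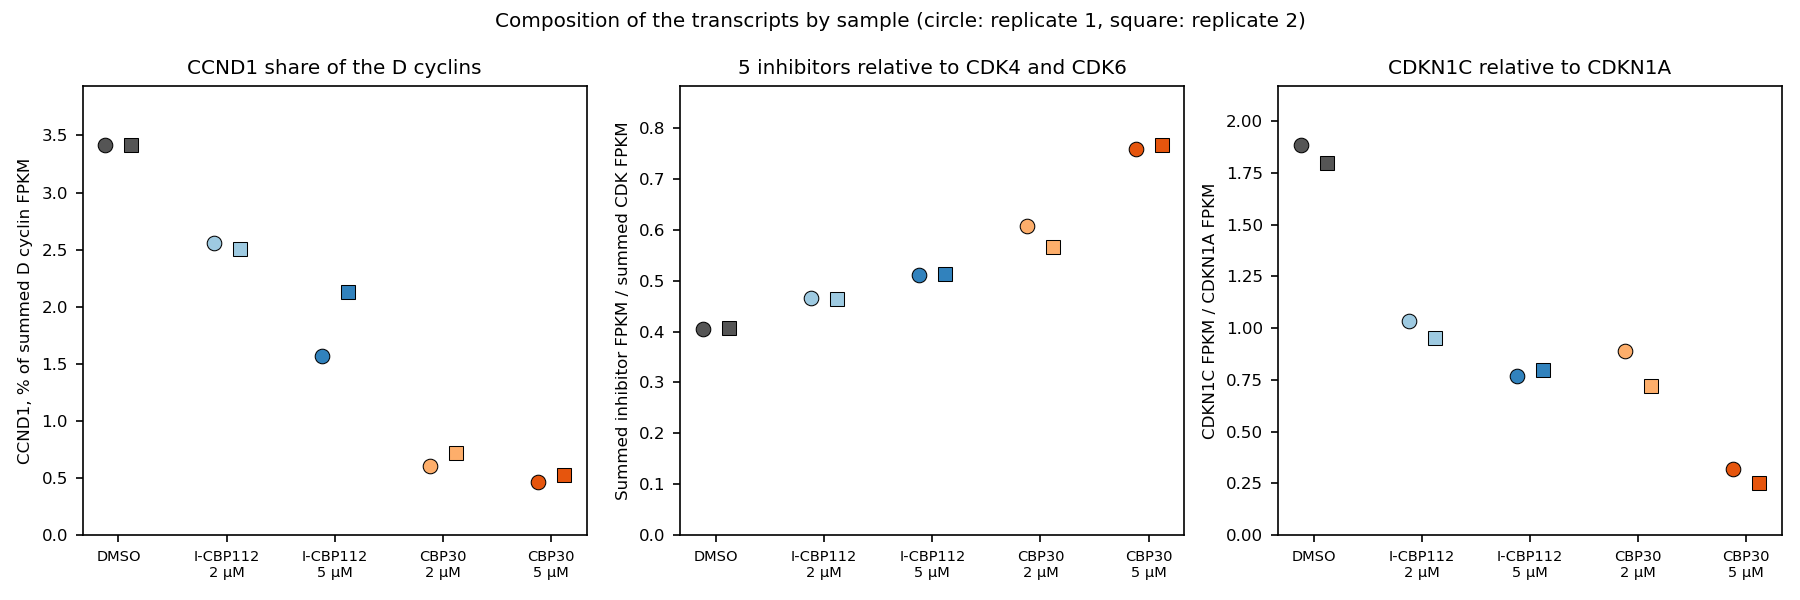
CCND1 as a percent of the summed D cyclin FPKM (left), summed FPKM of the 5 inhibitors divided by that of CDK4 and CDK6 (middle) and the ratio of CDKN1C to CDKN1A (right), each axis from 0, for the 2 samples of each condition (circle, replicate 1; square, replicate 2). The middle panel runs from 0.405 with DMSO to 0.768 with 5 µM CBP30, and the left panel from 3.42% to 0.462%.

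CBP30 and I-CBP112, which bind the same bromodomains and differ in chemical structure, were compared at matched concentrations, 2 pairs in all, with p-values adjusted over all tested genes within each pair. At 5 µM, 5 of the 10 genes differed (31.4% of all tested genes): CCND1, CDK4 and CDKN1C were lower and CDKN1A and CDKN1B higher with CBP30. CCND1 was at 27.5% of its level with I-CBP112 (−1.06, SE 0.0977, adjusted p = 0.000481 from limma), and CDKN1C at 56.4% (−0.72, adjusted p = 0.0219). CDKN1A was 1.56-fold higher (0.60, adjusted p = 0.0157) and CDKN1B 1.20-fold higher (0.25, adjusted p = 0.0155). The lower CDK4 (−0.34, adjusted p = 0.0402) was lost without the filter on low values (0.0591) or after median centring (0.0587). Leaving out any of the 4 samples compared kept only CCND1 called. Some genes showed no call between the compounds: CDK6 differed by −0.01, with a 95% confidence interval from −0.44 to 0.43, CCND3 by 0.09 (−0.14 to 0.32) and CDKN2D by 0.17 (−0.01 to 0.36). The count at 5 µM was 7 genes (52.2% of all tested genes) without replicate 1 of 2 µM CBP30, with CCND2 and CDKN2C added.

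At 2 µM, 4 genes differed between the compounds (15.6% of all tested genes), CCND1 and CCND2 lower and CDKN1B and CDKN2C higher with CBP30. CCND1 was at 30.4% of its level with I-CBP112 (−1.10, SE 0.0977, adjusted p = 0.00154 from limma) and CDKN2C was 1.58-fold higher (0.61, adjusted p = 0.0267). CDKN1A was close in both, at 10.1 ± 1.71 FPKM (SD, n = 2) with CBP30 and 9.14 ± 1.34 with I-CBP112, a difference of 0.13 with a 95% confidence interval from −0.19 to 0.45. Leaving out replicate 1 of 2 µM CBP30 gave 5 genes (18.7%), with CDKN1C added (−0.43, adjusted p = 0.0433). In a fit of only the 2 groups no gene of the 10 was called by limma, against 4 with all groups, and 14 of all tested genes were called in place of 1993.

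From 2 to 5 µM CBP30, CDK4 and CDKN1C fell and CDKN1A rose, 3 of the 10 genes against 38.9% of all tested genes. CDKN1A was 1.74-fold higher at 5 µM (0.75, SE 0.135, adjusted p = 0.00833 from limma). Its call was lost without replicate 2 of 5 µM CBP30, where the difference was 0.70. CDK4 was at 73.7% of its level at 2 µM (−0.43, adjusted p = 0.0185, lost without either replicate of 5 µM CBP30). Without replicate 1 of 2 µM CBP30 the difference was −0.27, from 1 sample at 2 µM. CDKN1C (−0.60, adjusted p = 0.0364) was no longer called without that library (−0.30, adjusted p = 0.0779), which left 2 genes (33.5% of all tested genes). A fit of only these 2 groups called none of the 10 genes and 6 of all tested genes. From 2 to 5 µM I-CBP112 limma called 0 of the 10 genes (0.0626% of all tested genes), and 3 genes had an unadjusted p under 0.05. These were CCND1 and CCND2, lower at 5 µM, and CDKN2D, higher at 5 µM. Without replicate 1 of 2 µM CBP30 the count was also 0 (0.195% of all tested genes).

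**Figure D5:**
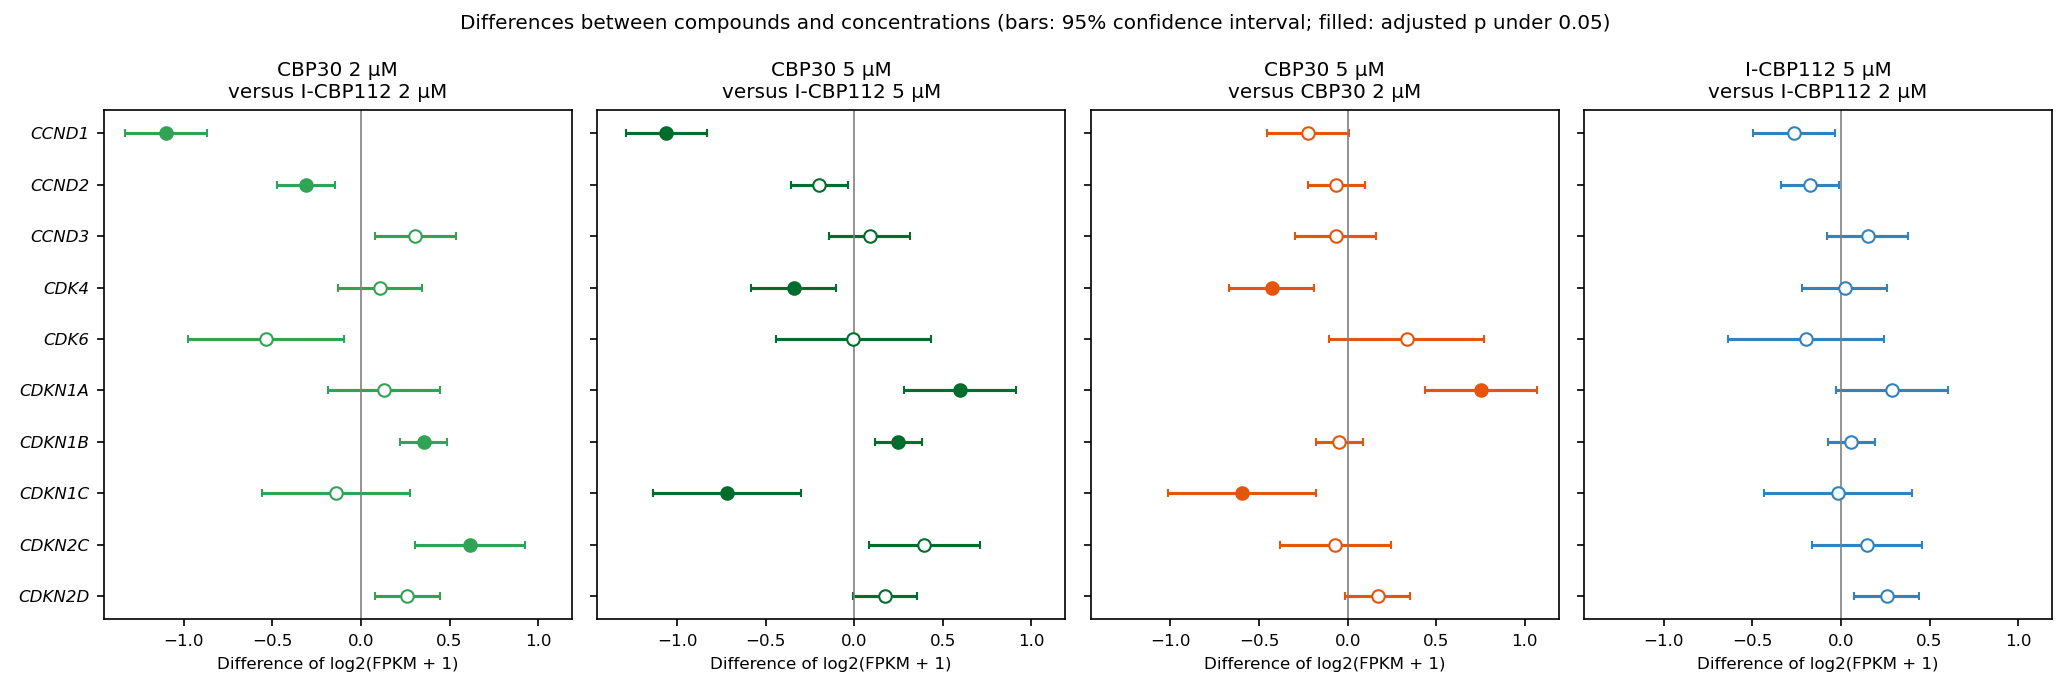
Differences on the log2(FPKM + 1) scale (horizontal axes) between the compounds at 2 and 5 µM and between the concentrations of each compound for the 10 genes (vertical axis), with 95% confidence intervals from limma over 10 samples, filled where the adjusted p was under 0.05. CCND1 lies near −1.10 and −1.06 in the panels that compare the compounds, and no gene is filled between the concentrations of I-CBP112.

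Downstream of the D cyclin kinases lie RB1, its relatives, the E2F factors with their partners, and the next cyclin and kinase pairs. Of 18 such genes, all tested, 6 fell and 4 rose with 5 µM CBP30 (46.6% of all tested genes were called), 3 fell and 4 rose with 2 µM CBP30 (32.1%), 1 fell and 1 rose with 5 µM I-CBP112 (7.12%), and limma called 0 with 2 µM I-CBP112 (1.6%). With CBP30 the share called was thus near that of all tested genes. Their median difference with 5 µM CBP30 was 0.00, as against −0.01 over all tested genes. CCNE2, an E-type cyclin that activates CDK2, was at 7.37 and 7.61 FPKM with DMSO and 14.2 and 14.1 with 5 µM CBP30, a 1.89-fold rise (0.83, SE 0.0709, adjusted p = 0.000131 from limma), and it rose with 2 µM CBP30 (0.56, adjusted p = 0.00175) and 5 µM I-CBP112 (0.39, adjusted p = 0.0212). E2F5, an E2F that works as a repressor with the RB relatives, was at 12.1 and 11.7 FPKM with DMSO and 7.17 and 8.01 with 5 µM CBP30 (−0.59, adjusted p = 0.000276), and it fell with 2 µM CBP30 (−0.22, adjusted p = 0.0318) and 5 µM I-CBP112 (−0.29, adjusted p = 0.0339). The others that rose with 5 µM CBP30 were CDK2, E2F7 and RB1, and those that fell were CCNA2, CDC25A, E2F4, TFDP1 and TFDP2, all named after their values were seen. Leaving out replicate 1 of 2 µM CBP30, 7 fell and 6 rose with 5 µM CBP30 (62.9% of all tested genes), 3 fell and 5 rose with 2 µM CBP30 (37.1%), 2 fell and 2 rose with 5 µM I-CBP112 (23%), and 1, E2F5, fell with 2 µM I-CBP112 (9.07%). E2F5 was then no longer among the genes called with 2 µM CBP30.

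The assembly, activation and turnover of the cyclin kinases were represented by 13 genes, all tested, of which 4 fell and 3 rose with 5 µM CBP30 (46.6% of all tested genes were called), 1 fell and 3 rose with 2 µM CBP30 (32.1%), and limma called 0 with either concentration of I-CBP112 (7.12% and 1.6% at 5 and 2 µM). With CBP30 this share, too, was near that of all tested genes. CCNH and CDK7, which with MNAT1 form the kinase that activates other CDKs, both fell with 5 µM CBP30. CCNH went from 57.1 and 57.8 FPKM to 32.4 and 33.1 (−0.79, SE 0.0773, adjusted p = 0.000242 from limma), and CDK7 from 41.1 and 39.9 to 29.3 and 30.8 (−0.42, adjusted p = 0.00140). MNAT1 did not fall, with 22.9 and 23.2 FPKM with DMSO and 24.3 and 26.2 with 5 µM CBP30. It was not called (0.13, adjusted p = 0.254 from limma), and was called higher with the length trend removed from all libraries. FBXO4, a substrate receptor in the degradation of cyclin D1 protein, went from 20.7 and 21.0 FPKM to 13.7 and 14.0 (−0.56, adjusted p = 0.000349). The fourth that fell was FBXO31, and those that rose were FBXW7, SKP1 and SKP2, all receptors or a subunit of SCF ubiquitin ligases, named after their values were seen. With replicate 1 of 2 µM CBP30 left out, 5 fell and 5 rose with 5 µM CBP30 (62.9% of all tested genes), 3 fell (CCNH, CDC37 and FBXO31) and 2 rose (SKP1 and SKP2) with 2 µM CBP30 (37.1%), 1 rose (SKP1) with 5 µM I-CBP112 (23%), and limma called 0 with 2 µM I-CBP112 (9.07%).

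The genes whose log2 levels followed each of the 10 most closely over the 10 samples were taken from 8749 tested genes with a mean of 5 FPKM or more. The samples share libraries and fall into 5 conditions, so Pearson's r is given here as a description of likeness. For CCND1 these were TMOD1 (r = 0.990), C2orf88 and WNK4 (both 0.988), and TMOD1 went from 23.3 FPKM with DMSO to 7.63 with 5 µM CBP30. For CDK4 they were RPL27 and EEF1G (both 0.994), for CDKN1A BCL2L1 (0.986), SH3BGRL3 (0.981) and MXRA7 (0.978), and for CDKN2D HIST1H2AC (0.988), RSAD2 (0.982) and NRGN (0.979). For CDK6 they were GCN1L1 (0.989), INO80 (0.987) and WDR36 (0.985), and for CDKN2C PINK1 (0.991), H2AFY (0.988) and H1FX (0.987). CCND2 was most like NOL8 (0.984), CCND3 like CFL1 (0.985), CDKN1B like HMGN2 (0.986) and CDKN1C like EIF3I (0.988). Replicate 1 of 2 µM CBP30, the library with the strongest length trend, was among the 10 samples, and no r is given without it. On the log2 scale it differed from the other replicate by −0.66 for CDK6, 0.46 for CDKN2C, 0.31 for CDK4 and 0.01 for CCND1. The part of this library in the likenesses was not tested.

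Markers of the erythroid lineage were above 1 FPKM in all samples for 10 of 10 genes, and they moved with the treatments: 9 fell and 1 rose with 5 µM CBP30 (46.6% of all tested genes were called), 8 fell with 2 µM CBP30 (32.1%), 5 with 5 µM I-CBP112 (7.12%) and 2 with 2 µM I-CBP112 (1.6%). Leaving out replicate 1 of 2 µM CBP30, 9 fell and 1 rose with 5 µM CBP30 (62.9%), 9 fell with 2 µM CBP30 (37.1%), and 8 fell with 5 µM (23%) and 8 with 2 µM I-CBP112 (9.07%). Their summed level was 1904 to 1953 FPKM with DMSO, 1138 to 1258 with 2 µM I-CBP112, 1091 to 1180 with 5 µM I-CBP112, 699 to 910.3 with 2 µM CBP30, and lowest, 626 to 653, with 5 µM CBP30. Markers of other cell types also moved, mostly from low levels. Of the T cell list CD3D was at 15.1 to 27.3 FPKM while CD3E and CD3G were at most 3.31 and 1.18, and all 3 rose with 5 µM CBP30, CD3E 2.93-fold (adjusted p = 0.000529 from limma). CD3D and CD3E were also called higher with 2 µM CBP30, and neither was without replicate 1 of that condition. Of the monocyte list LYZ was at 38.0 to 52.1 FPKM and rose with all 4 treatments, between 1.21-fold and 1.36-fold, and was called with all 4 without that library too, while CD14 and CSF1R were at most 0.183 and 0.0449. The fibroblast list summed to at most 2.27 FPKM, and its COL1A1 rose 3.99-fold with 5 µM CBP30 (adjusted p = 8.996e-05 from limma), 2.41-fold with 2 µM CBP30 and 2.03-fold with 5 µM I-CBP112, and without that library was called with 2 µM I-CBP112 as well. The B cell list summed to at most 1.52 FPKM, with MS4A1 at 0 in all samples and 1 gene tested, which was called higher with 2 µM CBP30 and was not without that library. The part of these shifts in the levels of the 10 genes was not tested.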

How the data were processed

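RNA of 10 K562 samples (5 conditions, 2 biological replicates each) was sequenced as single reads from stranded, polyA-selected libraries. The authors processed the reads with Nextpresso on hg19 and deposited FPKM values per gene and sample, without pooling. The submitters' processing notes list FastQC, TopHat2 2.0.10, Bowtie 1.0.0, SAMtools 0.1.19, Cufflinks 2.2.1 and Cuffnorm, with no roles or settings. No column was without a sample.

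Groups came from the labels. The 12788 genes with a mean of 0.5 FPKM or more were tested as log2(FPKM + 1) in 1 fit of all groups with limma 3.58.1 in R 4.3.3 (trended eBayes, 5 residual and 2.15 prior degrees of freedom), in 8 comparisons. On simulated data for 5 µM CBP30 against DMSO, 173 of 200 genes changed by 1 on the log2 scale were called, and 8 others of 12788. The changed genes were taken from the better expressed ones, and noise was drawn independently for each gene, without a length trend. These numbers check the fit and do not give the error in the real libraries. The p-values rest on the spread between these samples, pooled over all conditions, with replicate 1 of 2 µM CBP30 included.

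The 10 genes, the lists and the tests were chosen with earlier results of these data known. From each list, genes called in at least 3 of the 4 comparisons with DMSO were named, failing that the 3 with the lowest p with 5 µM CBP30. For each of the 10 genes called in any comparison with DMSO, the 3 most alike were taken. One list and 1 of the most alike genes are not reported here. Positions and transcript lengths came from GENCODE v44 on hg19 (95% of tested genes). Figures used Python 3.11.15, pandas 2.3.3 and matplotlib 3.10.9. Alternatives were a pseudocount of 0.1, other filters, quantile normalization, median centring, untrended eBayes, a replicate block, removal of the length trend, a fit restricted to the compared groups and leaving out each sample.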

Additional observations from a re-analysis of the deposited data

How the results depend on the processing

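The 80 differences (10 genes, 8 comparisons) were recomputed under 10 other settings and without each of the 10 samples. Of 784 values under other settings 698 kept direction and side of the threshold, 41 were newly called, 28 were no longer called and 17 changed sign. Of 800 values with a sample left out these numbers were 664, 30, 90 and 16. None of the 33 changes of sign was of a called difference. With 2 samples per condition, the spread is pooled over conditions, and a sample left alone is taken to vary like the others. The causes of the shifts below were not tested.

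Numbers of the 10 genes called changed as follows. A fit of only the groups compared called 1 with 2 µM CBP30, 0 with 2 µM I-CBP112, 0 between the concentrations of CBP30 and 0 between the compounds at 2 µM, and over all tested genes 307, 28, 6 and 14 in place of 4111, 205, 4979 and 1993. With 5 µM I-CBP112, a filter at 5 FPKM, which drops CCND1 and CDKN2D, left 1, removal of the length trend gave 8 (1864 of all genes, in place of 910), and this with the replicate block 6. With 2 µM I-CBP112, no filter, the filter at 5 FPKM, median centring, quantile normalization and the replicate block each gave 0, and removal of the length trend gave 2, with or without the block. Between the concentrations of CBP30 removal of the length trend gave 5, with or without the block. Between the compounds at 5 µM quantile normalization gave 8 and removal of the length trend 9, with or without the block.

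With a sample left out, the number of the 10 genes called was 7 to 10 with 5 µM CBP30, 4 to 9 with 2 µM CBP30, 1 to 8 with 5 µM I-CBP112, 0 to 2 with 2 µM I-CBP112, 0 to 6 between the concentrations of CBP30, 0 in each case between those of I-CBP112, 1 to 7 between the compounds at 5 µM and 1 to 8 at 2 µM. With 5 µM I-CBP112 it was 8 without either replicate of 2 µM CBP30, and 1 without either DMSO sample or replicate 1 of the treated samples. With 2 µM CBP30 it was 5 and 4 without replicate 1 and 2 of DMSO.

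Sign changes of differences that were not called were as follows, on the log2 scale. CDK4 was at −0.0087 with 2 µM CBP30 (length trend removed, with or without the block), 0.0027 and 0.0206 with 5 µM I-CBP112 (median centring and quantile normalization) and 0.0101 with 2 µM I-CBP112 (quantile normalization). Between the concentrations of CBP30, quantile normalization gave 0.11 for CCND3, 0.0378 for CDKN1B and 0.0163 for CDKN2C, and removal of the length trend, with or without the block, gave 0.12, 0.0912 and 0.26 for these genes and −0.0295 for CDK6. The 0.26 of CDKN2C was then called (adjusted p = 0.0123 from limma). CDK6 was at 0.0269 between the compounds at 5 µM (quantile normalization). With a sample left out, CDK4 ranged from −0.0732 to 0.24 with 2 µM CBP30, −0.0205 to 0.0132 with 5 µM I-CBP112, −0.10 to 0.0545 with 2 µM I-CBP112, −0.0581 to 0.0982 between the concentrations of I-CBP112 and −0.0496 to 0.26 between the compounds at 2 µM. CCND2 ranged from −0.10 to 8e-04 with 2 µM I-CBP112. Between the concentrations of CBP30, CCND2 ranged from −0.15 to 0.0239, CCND3 from −0.23 to 0.0951, CDKN1B from −0.11 to 0.0129 and CDKN2C from −0.30 to 0.16. CDKN1C ranged from −0.10 to 0.0629 between the concentrations of I-CBP112 and from −0.43 to 0.15 between the compounds at 2 µM, where CDKN1A ranged from −0.0265 to 0.29. CDK6 ranged from −0.0284 to 0.0168 between the compounds at 5 µM.

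Deviations of same-numbered samples were hardly correlated (correlations across genes from −0.0681 to 0.0939). This check cannot exclude that same-numbered samples were handled together, since such handling need not shift many genes alike. The replicate block ended the calls of CDKN2D with 2 µM I-CBP112 (adjusted p = 0.0674) and CDK4 between the compounds at 5 µM (adjusted p = 0.0579), and 9, 8, 3, 0, 3, 0, 4 and 4 genes were called with it, in the order of comparisons used above.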
